A study of Mus musculus with 6 samples.

Results

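Kupffer cells are the resident macrophages of the liver, and 9 genes that mark them in the mouse were followed in whole liver RNA: Clec4f, Mrc1, Vsig4, Marco, Cd163, Cd5l, Timd4, Adgre1 and Cd68. They were chosen by name, but with earlier results of these data known. The list held 10 gene symbols, in which Emr1 and Adgre1 stand for the same gene, and all 9 genes were among the 24346 rows of the expression table. The levels are FPKM (fragments of a gene divided by the length of its transcript and by the size of the library), so levels of different genes can be set side by side per length.

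The livers came from male C57BL/6J mice that were 8 weeks old when they began CDAHFD, a diet rich in fat, without choline and with amino acids in place of protein, which brings on steatohepatitis. After 6 weeks on CDAHFD each mouse received AAV8, an adeno-associated virus, by a single intravenous injection, and 2 weeks on normal diet followed. In the 3 control livers the virus carried LDTS-LIR mut and in the 3 lipophagy livers it carried LDTS-eLIR, an adapter that draws lipid droplets into autophagosomes. Both constructs hold mCherry and the lipid droplet-targeting sequence (LDTS) of perilipin 1 and were driven by the TBG promoter of hepatocytes, so the macrophages were not the cells the vector was built to express in. No liver of a mouse without CDAHFD or without a vector was analysed here, and the question the comparison answers is therefore how the markers differed between active and mutant adapter on the same diet history. The labels number the livers but do not say more of each animal, so p-values measure the spread between these 6 samples.

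Kupffer cells line the sinusoids, where they take up particles, complement-coated microbes, aged red cells and dying cells from the blood. They are seeded before birth and maintain themselves by division, and their identity depends on signals from stellate cells, sinusoidal endothelium and hepatocytes, among them CSF1, Notch ligands and TGF-beta family ligands. In steatohepatitis resident Kupffer cells are known to die in part and to be replaced by monocyte-derived macrophages, which take on genes of the resident cells at different speeds, Timd4 being among the latest. Clec4f is nearly restricted to Kupffer cells, whereas Cd68 and Adgre1 are shared with other macrophages and Mrc1 with sinusoidal endothelium. In RNA of whole liver, fewer cells of a type and less RNA per cell cannot be told apart.

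Of the 7 markers tested, 5 were higher and 2 lower in lipophagy livers, and 0 passed the threshold. Vsig4 was 1.35-fold as high in lipophagy livers as in control livers, Cd68 was 0.759-fold as high, and in both cases the ranges of the groups did not overlap. Of all genes tested 15.4% were higher and 10.8% lower without overlap of the groups, so 1 member on each side of the 7 tested is near the share over all genes. Neither Vsig4 nor Cd68 passed the threshold after adjustment over all genes. Of the 9 members 7 reached the mean level of 0.5 FPKM set for the test, and Timd4 and Cd163 did not. Clec4f, the most specific marker of the 9, had overlapping ranges, as did the other 6 members.

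The promoters of these 2 genes are shown as those of the tested members with the largest difference in either direction on the log2(FPKM + 1) scale, neither of which passed the threshold. The letters are from RefSeq (GRCm38.p6), read 5′ to 3′ on the minus strand, and they are the 250 bases that end just before the start of the transcript. Capitals mark matches, on either strand, to GAGGAA (the core bound by PU.1, encoded by Spi1), TGANTCA (AP-1) and TGGGAA (the core bound by RBPJ), and no matches overlapped.
Vsig4, chrX:96293439-96293688: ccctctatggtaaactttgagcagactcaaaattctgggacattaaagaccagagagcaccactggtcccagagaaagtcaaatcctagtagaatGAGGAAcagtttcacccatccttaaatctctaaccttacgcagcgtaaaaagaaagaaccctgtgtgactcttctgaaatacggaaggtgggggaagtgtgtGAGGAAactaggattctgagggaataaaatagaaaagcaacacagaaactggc
Cd68, chr11:69666171-69666420: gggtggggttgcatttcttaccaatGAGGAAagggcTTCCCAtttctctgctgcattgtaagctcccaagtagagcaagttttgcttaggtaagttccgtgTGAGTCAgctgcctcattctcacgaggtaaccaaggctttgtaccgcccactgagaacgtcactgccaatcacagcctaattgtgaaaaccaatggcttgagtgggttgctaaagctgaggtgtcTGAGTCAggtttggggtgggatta
The Vsig4 window held GAGGAA at 2 places and none of the other motifs. The Cd68 window held GAGGAA once, TGGGAA once (read as TTCCCA on the printed strand) and TGANTCA at 2 places. A promoter entry was found for 8 of the 9 members, Adgre1 being the exception. GAGGAA was present in 5 of these 8, against 23.3% of all 32851 promoters of this length. TGGGAA was present in 3 of the 8, against 21.6% of all promoters, and TGANTCA only in Cd68, against 6.75%. CACGTG, the box bound by factors such as TFEB and USF, was in 0 of the 8 and in 6.02% of all promoters. These are matches of letters and not sites of binding.

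Members differed by more than 2 orders of magnitude in level. By the mean over the 6 livers Cd5l was highest at 59.5 FPKM, followed by Cd68 at 32.4, Clec4f at 28.2 and Vsig4 at 14.9 FPKM. Marco at 4.44, Adgre1 at 4.43 and Mrc1 at 3.03 FPKM formed a lower step. Timd4 at 0.256 and Cd163 at 0.151 FPKM were lowest. Cd68 and Clec4f overlapped across livers, as did Marco with Adgre1 and with Mrc1, and Timd4 with Cd163, so these neighbours in the order were not separated by their spread. The lowest Adgre1 and the highest Mrc1 value met at 3.71 FPKM. The other neighbours did not overlap.

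**Figure D1:**
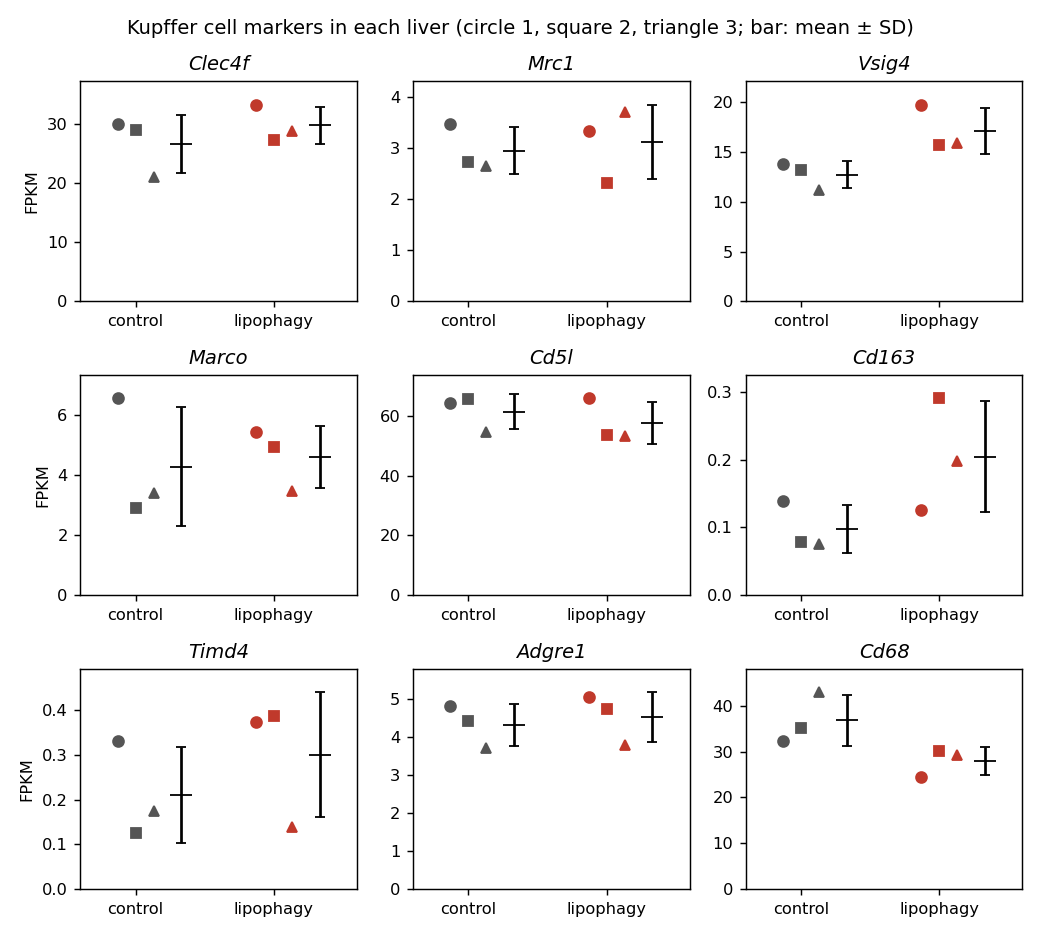
Level of each marker in FPKM (vertical axes, linear from 0, 1 panel per gene) in the control livers (grey) and lipophagy livers (red), with the mean and SD (n = 3) beside the points. The 3 lipophagy livers lie above all control livers for Vsig4 and below all of them for Cd68, and the groups overlap in the other 7 panels.

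Clec4f encodes a C-type lectin on the surface of Kupffer cells that binds galactose-bearing glycans. Its level was 30.0, 29.0 and 21.0 FPKM in control livers 1, 2 and 3 and 33.3, 27.3 and 28.8 FPKM in lipophagy livers 1, 2 and 3. Control liver 3 was low, and the other 5 livers lay close together with the groups mixed. The means were 26.7 ± 4.95 and 29.8 ± 3.12 FPKM (SD, n = 3 each), a difference of 0.17 on the log2(FPKM + 1) scale (95% interval -0.16 to 0.50, limma adjusted p = 0.529). A loss of Clec4f of more than 0.16 on this scale and a gain of more than 0.50 both lie outside this interval, and the difference was 0.0091 without control liver 3. Its gene is at chr6:83644542-83656187 on the minus strand (GRCm38, GENCODE M21).

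Mrc1 encodes the mannose receptor, a lectin of macrophages that also serves sinusoidal endothelium in clearing glycoproteins. It had 3.47, 2.72 and 2.65 FPKM in control livers and 3.34, 2.31 and 3.71 FPKM in lipophagy livers. The lowest and the highest value were both in lipophagy livers. The difference was 0.05 on the log2 scale (95% interval -0.28 to 0.39, limma adjusted p = 0.865), and it had the opposite sign without control liver 3 (-0.0014) or lipophagy liver 3 (-0.05). The microRNA gene Mir511 lies within Mrc1, and no other member overlapped a gene of the annotation. Relative to Stab2, a scavenger receptor of sinusoidal endothelium, Mrc1 differed by -0.06 in log2 ratio between the groups (exact permutation test, two-sided, p = 0.8, the smallest possible p being 0.1), and by -0.0050 without lipophagy liver 2 and -0.16 without lipophagy liver 3.

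Vsig4 encodes CRIg, the receptor by which Kupffer cells catch particles coated with complement C3b and iC3b from the blood. It had 13.7, 13.2 and 11.2 FPKM in control livers and 19.7, 15.7 and 15.9 FPKM in lipophagy livers. All lipophagy livers lay above all control livers, lipophagy liver 1 farthest. The means were 12.7 ± 1.36 and 17.1 ± 2.28 FPKM (SD, n = 3 each), a difference of 0.40 on the log2 scale (SE 0.12, 95% interval 0.14 to 0.67). In limma the adjusted p over the 11493 genes tested was 0.161 (unadjusted 0.00831), so Vsig4 did not pass the threshold of 0.05. Of all genes tested 11.5% had an unadjusted p below 0.05 in this direction. Vsig4 is at chrX:96247203-96293438 on the minus strand.

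Marco, Cd163 and Cd5l belong to the family with scavenger receptor cysteine-rich (SRCR) domains. Marco, a receptor for bacteria and particles, had 6.55, 2.89 and 3.38 FPKM in control livers and 5.43, 4.94 and 3.46 FPKM in lipophagy livers. Control liver 1 was highest and control liver 2 lowest, so the spread within the control group covered all lipophagy livers. The difference was 0.13 on the log2 scale (95% interval -0.43 to 0.70, limma adjusted p = 0.786), the widest interval of the 7 tested members, and the difference was -0.05 without control liver 2 and 0.42 without control liver 1.

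Cd5l, a secreted SRCR protein of tissue macrophages also called AIM, had 64.2, 65.5 and 54.7 FPKM in control livers and 65.9, 53.8 and 53.2 FPKM in lipophagy livers. The livers fell into a higher set of 3 and a lower set of 3, each with livers of both groups. Its difference was -0.09 on the log2 scale (95% interval -0.35 to 0.17, limma adjusted p = 0.662). The Cd5l difference was -0.19 without lipophagy liver 1, -0.04 without lipophagy liver 3 and -0.23 with quantile normalization. Cd163, the receptor for haemoglobin bound to haptoglobin, had 0.138, 0.0784 and 0.0753 FPKM in control livers and 0.126, 0.290 and 0.197 FPKM in lipophagy livers. Lipophagy livers 2 and 3 lay above every control liver and lipophagy liver 1 did not. These levels correspond to an estimated 8.1 to 28.7 fragments per liver, and the difference was 0.13 on the log2 scale (exact permutation test, two-sided, p = 0.2). With a pseudocount of 0.1 in place of 1 the difference was 0.60. When 1 liver was left out it ranged from 0.08 without lipophagy liver 2 to 0.18 without lipophagy liver 1.

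Timd4 encodes TIM-4, a receptor for phosphatidylserine on dying cells that marks Kupffer cells of long residence. It had 0.332, 0.125 and 0.174 FPKM in control livers and 0.374, 0.388 and 0.139 FPKM in lipophagy livers. High and low livers occurred in both groups. At the estimated 6.0 to 17.9 fragments per liver the counting error was wide, for example a 95% Poisson interval of 0.046 to 0.273 FPKM in control liver 2 and of 0.232 to 0.619 FPKM in lipophagy liver 2. These intervals cover counting error only. The difference was 0.10 on the log2 scale (exact permutation test, two-sided, p = 0.3), 0.35 with a pseudocount of 0.1, and from 0.05 without control liver 2 to 0.19 without lipophagy liver 3 when 1 liver was left out. With 3 livers a group the smallest p of this test is 0.1, so it could not pass the threshold at any depth.

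Adgre1 and Cd68 are shared by most tissue macrophages. Adgre1 encodes an adhesion G protein-coupled receptor whose antibody is used as a general label of mouse macrophages, and had 4.82, 4.44 and 3.71 FPKM in control livers and 5.06, 4.74 and 3.80 FPKM in lipophagy livers. The groups were interleaved, with a difference of 0.05 on the log2 scale (95% interval -0.22 to 0.33, limma adjusted p = 0.823) that had the opposite sign without control liver 3 (-0.03) or lipophagy liver 1 (-0.01).

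Cd68 encodes macrosialin, a heavily glycosylated protein of late endosomes and lysosomes. It had 32.4, 35.1 and 43.0 FPKM in control livers and 24.4, 30.1 and 29.3 FPKM in lipophagy livers. All lipophagy livers lay below all control livers. The means were 36.8 ± 5.50 and 27.9 ± 3.09 FPKM (SD, n = 3 each), a difference of -0.38 on the log2 scale (SE 0.13, 95% interval -0.67 to -0.09, limma adjusted p = 0.186, unadjusted 0.0158). Of all genes tested 7.97% had an unadjusted p below 0.05 with lipophagy lower. The order of the 6 livers by Vsig4, from control liver 3 through control livers 2 and 1 to lipophagy livers 2, 3 and 1, was the exact reverse of their order by Cd68. Cd68 is at chr11:69664213-69666153 on the minus strand.

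**Figure D2:**
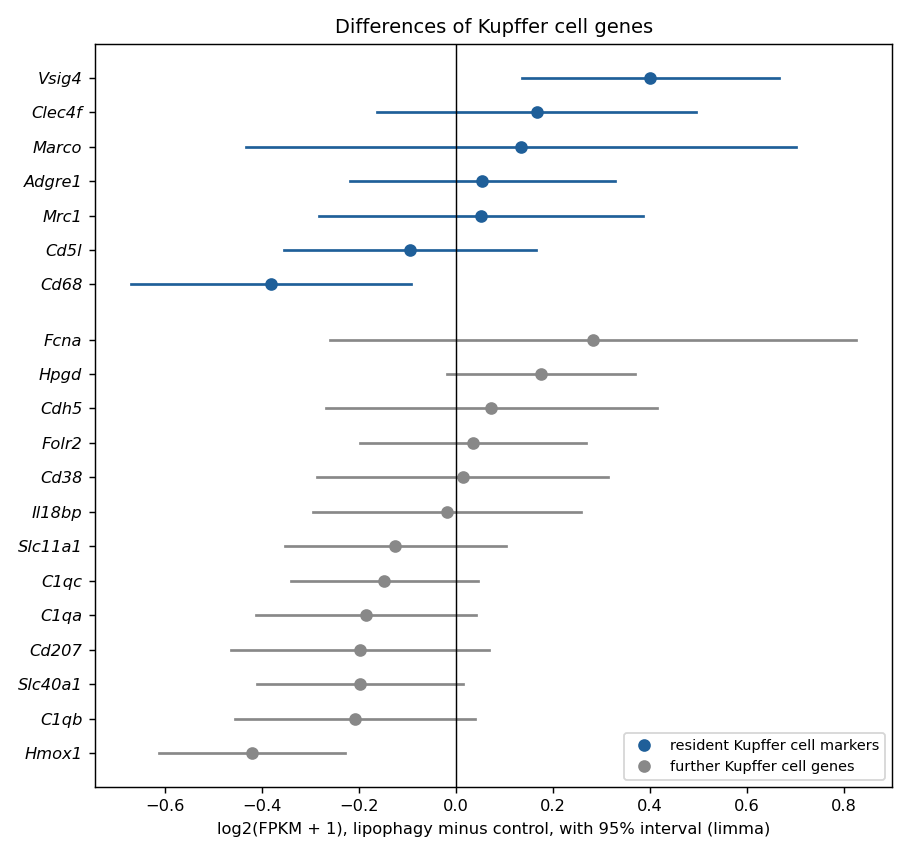
Difference between lipophagy and control livers in log2(FPKM + 1) (horizontal axis; points, with the 95% interval of limma as lines) for the 7 tested markers (blue) and 13 further Kupffer cell genes (grey). Only the intervals of Vsig4, Cd68 and Hmox1 do not cross 0, and no gene shown passed the threshold after adjustment.

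Over the members, 0 of the 7 tested had an adjusted p below 0.05 in limma, with or without its intensity trend, against 3 of all 11493 genes (0.0261%). At an unadjusted p below 0.05 there was 1 member on each side, near the 11.5% higher and 7.97% lower of all genes. By sign alone 5 of the 7 were higher and 2 lower in lipophagy livers, beside 6259 higher and 5234 lower of all tested genes, and the median difference of 0.05 on the log2 scale stood beside 0.02 for all tested genes. Control liver 3 had the lowest value of 4 of the 9 members, and lipophagy liver 1 had the highest value of 4.

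Ratios within a liver compare a marker of Kupffer cells with one of all macrophages in the same RNA. Clec4f relative to Adgre1 was 6.21, 6.54 and 5.65 in control livers and 6.58, 5.76 and 7.57 in lipophagy livers, with mixed groups (log2 difference 0.11, exact permutation test, two-sided, p = 0.4). This difference was -0.02 with quantile normalization, 0.04 without lipophagy liver 3 and 0.20 without lipophagy liver 2. Timd4 relative to Clec4f differed by -0.06 in log2 ratio (exact permutation test, two-sided, p = 0.7), and its sign turned with the pseudocount of 0.1 (0.18), with quantile normalization (0.11), and without control liver 3 (0.07) or lipophagy liver 3 (0.0057). Clec4f relative to Cd68 was 0.925, 0.828 and 0.488 in control livers and 1.36, 0.906 and 0.982 in lipophagy livers, and lipophagy liver 2 lay just below control liver 1. The log2 difference was 0.55 (exact permutation test, two-sided, p = 0.2), and 0.28 without control liver 3.

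Further ratios were taken after the values had been seen and are given without a test. Vsig4 relative to Cd68 was 0.424, 0.376 and 0.260 in control livers and 0.810, 0.521 and 0.543 in lipophagy livers, with no overlap. Vsig4 alone separated the groups upward and Cd68 alone downward, so this ratio had to separate them and adds no further result. Vsig4 relative to Clec4f was 0.459, 0.455 and 0.533 against 0.593, 0.575 and 0.553, and Vsig4 relative to Adgre1 was 2.85, 2.97 and 3.01 against 3.90, 3.31 and 4.19. In both, the groups did not overlap, but both use the Vsig4 values, which already separated the groups alone. Adgre1 relative to Cd68 overlapped between the groups, from 0.0864 to 0.149 in control livers and from 0.130 to 0.207 in lipophagy livers.

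**Figure D3:**
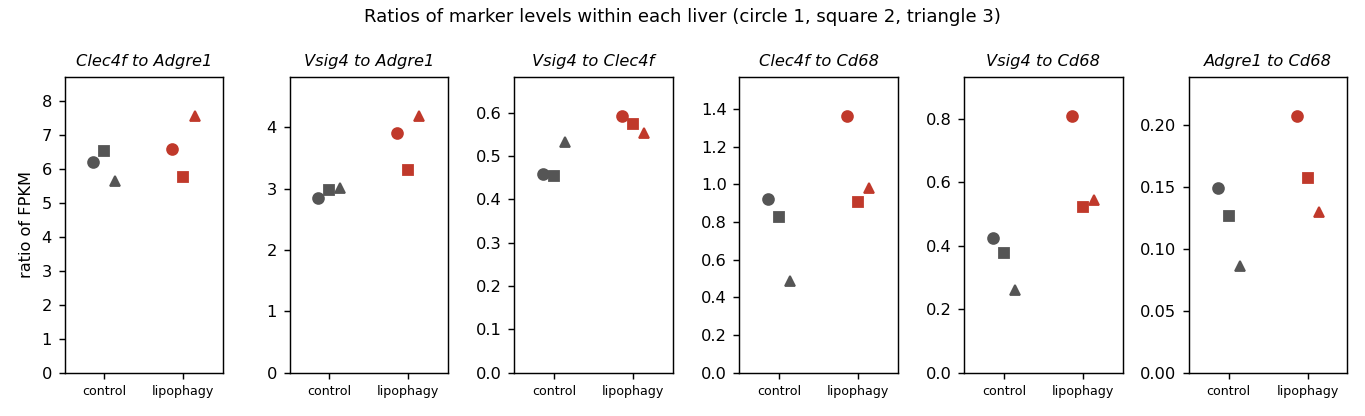
Ratio of the FPKM of a pair of markers within each liver (vertical axes, linear from 0, 1 panel per pair) in control livers (grey) and lipophagy livers (red). The groups are separate in the 3 panels with Vsig4 and overlap in the other 3. The panels with Vsig4 were chosen after the values had been seen. They share the Vsig4 values, which separate the groups alone, and are not independent results.

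Other genes known from Kupffer cells were read from lists. Of 15 further Kupffer cell genes 13 were tested and 0 passed the threshold, 5 being higher and 8 lower in lipophagy livers (median -0.13 on the log2 scale). Hmox1, the haem-degrading oxygenase, lay farthest below control, with 24.6, 22.1 and 21.7 FPKM in control livers and 16.3, 16.2 and 17.8 FPKM in lipophagy livers (log2 difference -0.42, limma adjusted p = 0.124). Fcna, a ficolin of the lectin complement pathway, lay farthest above, with 21.2, 22.6 and 12.5 FPKM against 29.5, 19.4 and 19.5 FPKM (log2 difference 0.28, limma adjusted p = 0.519), and differed by 0.03 without control liver 3 and 0.09 without lipophagy liver 1. As for Clec4f and Vsig4, control liver 3 was lowest and lipophagy liver 1 highest. C1qa, C1qb and C1qc, the chains of complement C1q, which were picked after their values were seen, differed by -0.18, -0.21 and -0.15 on the log2 scale, with overlapping groups, and by -0.35, -0.37 and -0.30 with quantile normalization (limma adjusted p 0.128, 0.177 and 0.128).

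The 13 transcription factors of Kupffer cell identity divided into 7 higher and 6 lower, with a median of 0.05, and 0 passed the threshold. Id3, needed for Kupffer cell development, had 66.1, 84.5 and 72.6 FPKM against 51.8, 54.0 and 72.0 FPKM (log2 difference -0.33, limma adjusted p = 0.255). Spi1, which encodes PU.1 and was picked after its values were seen, had 10.6, 11.3 and 11.5 FPKM in control livers and 9.12, 9.34 and 8.66 FPKM in lipophagy livers (log2 difference -0.27, limma adjusted p = 0.154).

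Among niche signals 12 of 14 genes were tested, 1 was higher and 11 were lower (median -0.09), and 0 passed the threshold. Csf1, the growth factor on which macrophages depend, had 3.24, 2.63 and 2.78 FPKM in control livers and 1.82, 1.82 and 1.96 FPKM in lipophagy livers, without overlap (log2 difference -0.44, limma adjusted p = 0.124). Il34, the other ligand of the same receptor, differed by 0.04 and took the opposite sign without control liver 3 (-0.07) or lipophagy liver 1 (-0.05). Csf1r, their receptor, which was picked after its values were seen, had 15.6, 16.4 and 16.2 FPKM against 12.7, 12.4 and 13.9 FPKM (log2 difference -0.28, limma adjusted p = 0.151). Of 18 tested scavenger and phagocytic receptors and their bridging ligands outside the marker group 17 were lower (median -0.25), and 0 passed the threshold. Gas6, the bridge between dying cells and the TAM receptors, was farthest below control at -0.62 (limma adjusted p = 0.148), and Cd36 was the only one above it, by 0.03, turning to -0.10 with quantile normalization.

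**Figure D4:**
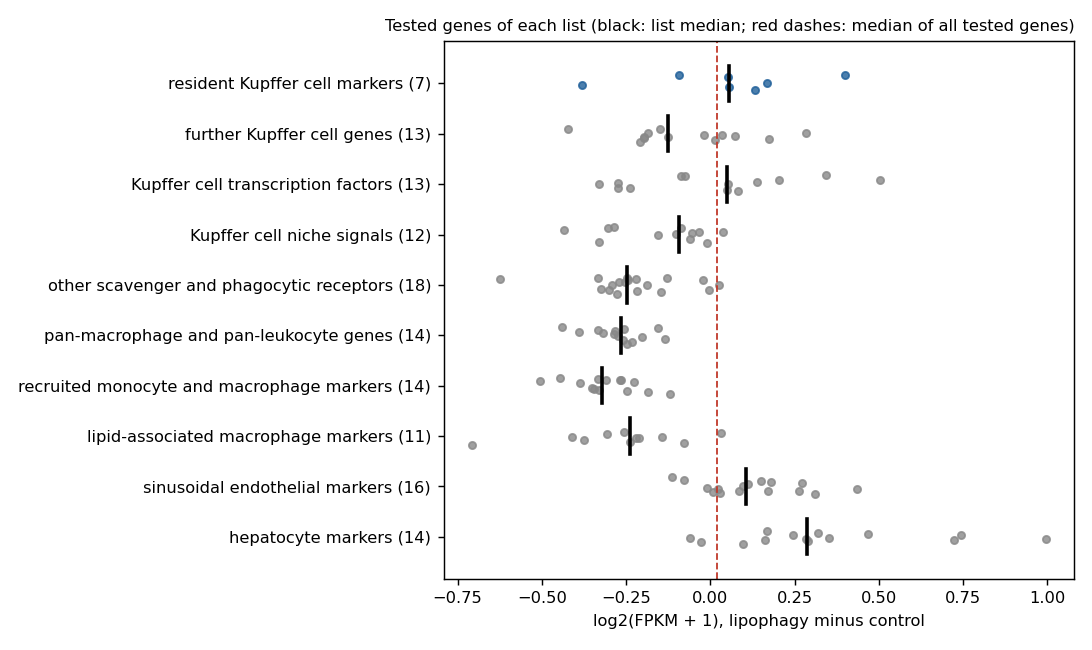
Difference between lipophagy and control livers in log2(FPKM + 1) (horizontal axis) for each tested gene (points) of the lists named at the left, with the number of genes in brackets. The median of the Kupffer cell markers lies at 0.05, near the 0.02 of all tested genes (dashed), and that of the further Kupffer cell genes at -0.13. Those of the pan-macrophage, recruited monocyte and lipid-associated macrophage lists lie at -0.27, -0.32 and -0.24.

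Lists of other macrophages and other cells of the liver stood beside these values as follows, and their part in the values of the markers was not tested. All 14 pan-macrophage and pan-leukocyte genes were lower (median -0.27, summed level 747 to 1007 FPKM in control and 722 to 880 FPKM in lipophagy livers), Coro1a being farthest below at -0.44. All 14 tested genes of recruited monocytes and macrophages were lower (median -0.32, 227 to 254 FPKM against 179 to 222 FPKM), S100a6 being farthest below at -0.51 (-0.21 without lipophagy liver 1). Of 11 lipid-associated macrophage genes 10 were lower (median -0.24, 931 to 1350 FPKM against 918 to 1185 FPKM), from Spp1 at -0.71 to Ctsd at 0.03. Only 1 of the 11 was lower without overlap of the groups, beside 10.8% of all genes tested. Ctsd was -0.18 with quantile normalization, which put all 11 lower, -0.09 without control liver 1 and -0.04 without lipophagy liver 2. Of 16 sinusoidal endothelial genes 13 were higher (median 0.10, 65.3 to 81.0 FPKM against 70.9 to 105 FPKM), from Pecam1 at -0.11 (-0.03 without lipophagy liver 2) to Clec4g at 0.43 (0.18 without lipophagy liver 1), and of 14 hepatocyte genes 12 were higher (median 0.29, 66940 to 74220 FPKM against 81510 to 103900 FPKM). Of 12 stellate cell genes 10 were lower (median -0.22, 194 to 225 FPKM against 160 to 212 FPKM), as were all 6 tested bile duct genes (median -0.44, 11.9 to 18.6 FPKM against 8.66 to 16.2 FPKM) and all 3 tested neutrophil genes (median -0.37, 19.1 to 33.2 FPKM against 16.8 to 20.01 FPKM). Red blood cell genes were higher in 5 of 5 (median 1.03, 94.6 to 109 FPKM against 107 to 293 FPKM), where near-identical globin copies can share reads. On the log2 scale the mean deviation of these genes from their averages was 0.18, 1.77 and -0.21 in lipophagy livers 1, 2 and 3. It was -0.71, -0.94 and -0.09 in control livers 1, 2 and 3, so lipophagy liver 2 stood apart. The T and NK cell, B cell and dendritic cell lists had 3, 4 and 1 tested genes with medians of 0.0018, -0.06 and 0.06. With quantile normalization the hepatocyte genes gave 8 higher and 5 lower (median 0.07), the B cell median turned to 0.02, and the medians of the other lists in this paragraph kept their sign. In none of these lists was a gene at 0 in all livers, and 0 of their genes passed the threshold. Some genes stand in more than 1 list, among them Spi1, Csf1r, Itgam and Itgb2.

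Liver by liver, the mean deviation of the 7 markers from their own averages on the log2 scale was 0.13, -0.05 and -0.15 in control livers and 0.14, -0.03 and -0.04 in lipophagy livers. The 16 sinusoidal endothelial genes gave 0.09, -0.12 and -0.15 in control livers and 0.29, -0.12 and 0.0073 in lipophagy livers. In both lists control liver 3 was lowest and lipophagy liver 1 highest, and control liver 1 stood above the other control livers. The 14 pan-macrophage genes gave 0.06, 0.13 and 0.22 in control livers and -0.21, -0.05 and -0.15 in lipophagy livers, the order that Cd68 followed. The 11 lipid-associated macrophage genes gave -0.21, 0.21 and 0.39 in control livers and -0.35, 0.10 and -0.14 in lipophagy livers, with the groups mixed.

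**Figure D5:**
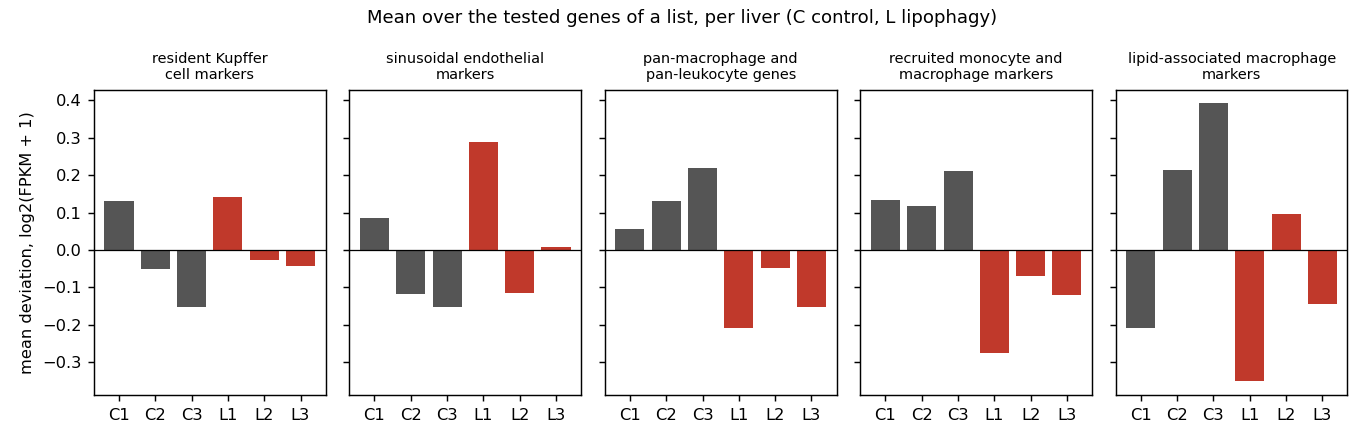
Mean deviation of the tested genes of a list from their own average over the 6 livers, in log2(FPKM + 1) (vertical axis), for control livers (grey, C1 to C3) and lipophagy livers (red, L1 to L3). The bars of the Kupffer cell markers and of the sinusoidal endothelial genes are lowest in control liver 3 and highest in lipophagy liver 1, and those of the pan-macrophage genes are all above 0 in control and below 0 in lipophagy livers. For the lipid-associated macrophage genes control liver 1 lies below 0 and lipophagy liver 2 above 0.

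The depth behind these values was estimated at 23.3 to 34.8 M fragments per liver. The Spearman correlation between livers was 0.98 to 0.991 across genes, and no pair of livers held identical values. The FPKM of all genes summed to 622696 to 681138 in control livers and to 709993 to 782392 in lipophagy livers, without overlap. With quantile normalization, which gives every liver the same distribution, Vsig4 differed by 0.31 and Cd68 by -0.50, and the split of all genes at an unadjusted p below 0.05 was 743 higher and 901 lower, against 1327 higher and 916 lower without it.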

How the data were processed

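Liver RNA of 3 control and 3 lipophagy mice was read as stranded, paired-end mRNA libraries. The authors deposited FPKM per gene symbol and liver. The submitters' processing notes name TopHat2 2.0.13, Bowtie2 2.2.3, SAMtools 0.1.19, Cufflinks 2.2.1 and mm10, and the annotation is not given in the sources used here. FPKM are not counts, so log2(FPKM + 1) was tested with limma 3.58.1 (R 4.3.3, intensity trend, two-sided) over the 11493 genes whose mean over the livers reached 0.5 FPKM. P-values were adjusted over all tested genes by the Benjamini-Hochberg method, and the threshold was 0.05. Timd4 and Cd163 did not reach that mean, and they and the ratios were compared by exact permutation tests. A difference on this scale understates the change of low genes.

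Depth was estimated from the steps of low FPKM values, with GENCODE M21 transcript lengths less 200 bases, and 75.1% to 80.8% of low values lay within 0.1 of a whole fragment. Fragments per gene are such estimates. Positions are from GENCODE M21 (GRCm38, the build of mm10), and promoters and motif shares from RefSeq GRCm38.p6. The fit was tested on simulated data. Figures and tables were made with Python 3.11.15, pandas 2.3.3 and matplotlib 3.10.9.

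The members and lists were chosen with earlier results of these data known. Named were every member and, in each other list, the genes with the largest rise and fall, here given for the lists of macrophages, their niche and sinusoidal endothelium only. A gene named by this rule is not reported here. Alternatives were pseudocounts, filters, scalings, no trend, the replicate number as a block and each liver left out.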

Additional observations from a re-analysis of the deposited data

How the results depend on the processing

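Vsig4 kept its direction under all 16 alternatives, from 0.30 to 0.46 on the log2 scale (limma adjusted p 0.143 to 0.367), and so did Cd68, from -0.50 to -0.27 (limma adjusted p 0.150 to 0.399). No tested member passed the threshold of 0.05 under any alternative. Clec4f lay between 0.0091 and 0.26, and Cd5l between -0.23 and -0.04. With 1 liver left out, Marco ranged from -0.054 to 0.42, Adgre1 from -0.031 (without control liver 3, and -0.015 without lipophagy liver 1) to 0.15, and Mrc1 from -0.053 (and -0.0014 without control liver 3) to 0.20. The median of the 7 tested members ranged from -0.0014 to 0.15. Of the ratios, Timd4 to Clec4f ranged from -0.18 to 0.073 with 1 liver left out, was 0.0057 without lipophagy liver 3, 0.18 with a pseudocount of 0.1 and 0.11 with quantile normalization, and Clec4f to Adgre1 was -0.024 with quantile normalization. Of the other genes named, Cd36 was -0.10 and Ctsd -0.18 with quantile normalization, Ctsd ranged from -0.086 (and -0.040 without lipophagy liver 2) to 0.11 and Il34 from -0.065 (and -0.047 without lipophagy liver 1) to 0.14 with 1 liver left out. The cause of these shifts was not tested.

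The number of all genes past the threshold was 3, against 1 without a filter, and 1 to 11 with 1 liver left out (7 and 1 when control livers 2 and 3 were left out, 5 and 11 when lipophagy livers 2 and 3 were). With the replicate number as a block it was 43, and no member's call changed under the block. Deviations of same-numbered livers correlated at 0.25, 0.23 and -0.06 across genes, and not every liver correlated best with its own number. With 3 livers a group these values neither establish nor exclude a pairing by number. The combination of a pseudocount of 0.1 with a mean of at least 0.1 FPKM, which lets Timd4 and Cd163 be tested, was chosen after seeing the data, and gave limma adjusted p of 0.616 and 0.304 for them. At 6.0 to 28.7 estimated fragments per liver, depth limits what can be said of these 2 genes.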
